A study of Mus musculus with 4 samples.

Results

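Cells that carry Il21 transcripts were compared with cells that carry none, among activated CD4 T cells sorted for an IL-4 reporter and marked by transcripts of follicular helper T cells (Tfh cells, the CD4 T cells that help B cells in germinal centres). The mice were of the C57BL/6 4GET IL-4 reporter strain, in which cells that have transcribed Il4 also make GFP, and their age and sex are not given in the sources used here. They received 10 µg of an extract of the mould Alternaria alternata with 25 µg of NP-OVA, a hapten-coupled protein antigen, into the nose. On day 7 the GFP-positive CD44+ CD4 T cells of the mediastinal lymph node, which drains the lung, were sorted and stimulated for 30 min with ionomycin and PMA. The cells of each of 3 mice carried their own hashtag antibody and were run together on 1 lane of the 10x Genomics system. A Tfh sort (CD44+ PD-1+ CXCR5+ CD4 T cells of C57BL/6 mice without the reporter, same immunization, day and stimulation) served as a side-by-side readout in 3 other mice.

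Cells were kept with 500 or more genes, at most 10% mitochondrial transcripts, no Cd79a (a B-cell receptor gene), no Il13 and at least 1 summed UMI (unique molecular identifier, 1 per captured transcript) of Cxcr5 and Bcl6. Cxcr5 is the chemokine receptor that brings T cells into B-cell follicles, and Bcl6 is the transcription factor that defines Tfh cells. Of 8501 cells that passed the filters on genes and mitochondrial transcripts in both sorts, 4585 belonged to the reporter sort, 1046 of these met the Tfh mark and 947 of those could be given to a mouse. The Il21+ side held the 307 cells with 2 or more Il21 UMIs and the Il21-negative side the 496 cells with none, 803 cells in all. Another 144 cells with 1 Il21 UMI stood between them, and 99 marked cells (9.46%) had no mouse. Il21+ cells made up 30.7%, 35.2% and 32.0% of the marked cells of mice 1, 2 and 3 (91, 83 and 133 cells), and Il21-negative cells numbered 156, 126 and 214. Il21 itself stood at 524 ± 31.6 CPM (UMIs scaled to a common library total; mean ± SD over 3 mice) on the positive side, with a median of 4 and a maximum of 45 UMIs per cell. Il21, Cxcr5, Bcl6, Il13 and Cd79a chose the cells, so their levels are no results and they were taken out of the tested table.

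IL-21 is a cytokine of the common gamma-chain family, made mainly by Tfh cells, that acts on germinal-centre B cells and plasma cells through IL21R and STAT3. In lymph nodes IL-4 and IL-21 are the cytokines by which Tfh cells steer B-cell growth and antibody class, and single cells can make either or both. PMA activates protein kinase C and ionomycin raises intracellular calcium, which together switch on AP-1, NF-kB and NFAT without the T-cell receptor, so cytokine genes are read here shortly after a strong common stimulus.

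The sides differed in depth before any gene was compared. Il21+ cells had median totals of 8179, 8298 and 8417 UMIs in mice 1, 2 and 3, and Il21-negative cells 6381.5, 5977 and 5566.5 UMIs. The main results are also given at matched depth, where equal numbers of cells of each side were drawn from 5 bins of total UMIs in each mouse (80, 63 and 108 cells a side, medians between 7523.5 and 7951 UMIs). Median mitochondrial shares were 5.52% to 5.84% in Il21+ cells and 6.00% to 6.42% in Il21-negative cells, and the summed UMIs per mouse and side ranged from 841768 to 1467228. In 250 cells with 2 or more Cd79a UMIs, 8.40% reached 2 Il21 UMIs (95% exact binomial interval 5.27% to 12.6%, counting error only) at a median depth of 4967.5 UMIs. The share was 32.4% of the 947 marked cells at 6789 UMIs. Of the 250 cells 37.2% also had a UMI of the T-cell gene Cd3g, against 97.9% of marked cells. They are thus not free of T-cell transcripts and give no clean background. Il21+ cells were not confined to the marked cells, since 26.3% of 1724 reporter-sorted cells without Cxcr5, Bcl6, Il13 or Cd79a UMIs also had 2 or more Il21 UMIs. Against those unmarked cells, the marked cells had more Sh2d1a (424 ± 5.61 against 266 ± 8.42 CPM), Tox2 (127 ± 11 against 56.6 ± 0.0989 CPM) and Pdcd1 (136 ± 16.9 against 101 ± 17.0 CPM). They had less Icos (243 ± 25.8 against 315 ± 11.9 CPM) and overlapping levels of Cd200 (210.0 ± 24.5 against 228 ± 30.9 CPM). The label thus holds for some Tfh genes and not for others, as levels with no test. Only 1 cell barcode occurred in the gene libraries of both sorts.

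Il21+ Tfh-marked cells carried more transcripts of a set of activation-linked ligands and cytokines (Tnfsf8, Tnfsf9, Tnf, Il2), of the regulators Bhlhe40 and Zfp703 and of the receptors Ctla4 and Cd83, and fewer of Satb1, Id3, Ikzf3 and Rgs1. As counted, 565 of 7162 genes tested passed (7.89% called), 335 higher (4.68%) and 230 lower (3.21%) in Il21+ cells, by edgeR's quasi-likelihood test with the mouse as a block and a Benjamini-Hochberg adjusted p under 0.05. At matched depth 53 of 6164 genes passed (0.86% called), 38 higher (0.616%) and 15 lower (0.243%), and 45 genes were called both ways. Random draws of the matched cells gave 53, 91 and 95 calls, and 42 genes were called in each of the 3 draws (33 higher and 9 lower), of which 39 were also called as counted. The draws are not independent, since each took 80 of the 91 Il21+ cells of mouse 1, for example. Summed UMIs were matched less closely than medians. In mouse 3 they were 943659, 1040736 and 1039185 in Il21+ and 914491, 915601 and 905197 in Il21-negative cells. In mouse 1 the Il21+ sum was the lower one in draws 1 and 2. The median log2 change over all genes tested was -0.017 as counted and -0.0046 at matched depth. DESeq2 called 82 genes as counted, all of them among the 565, and the fit without mouse 2 called 161. Values below are normalised levels in CPM, always in the order of mice 1, 2 and 3. Changes are log2 ratios of Il21+ over Il21-negative sums with 2 residual degrees of freedom.

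**Figure D1:**
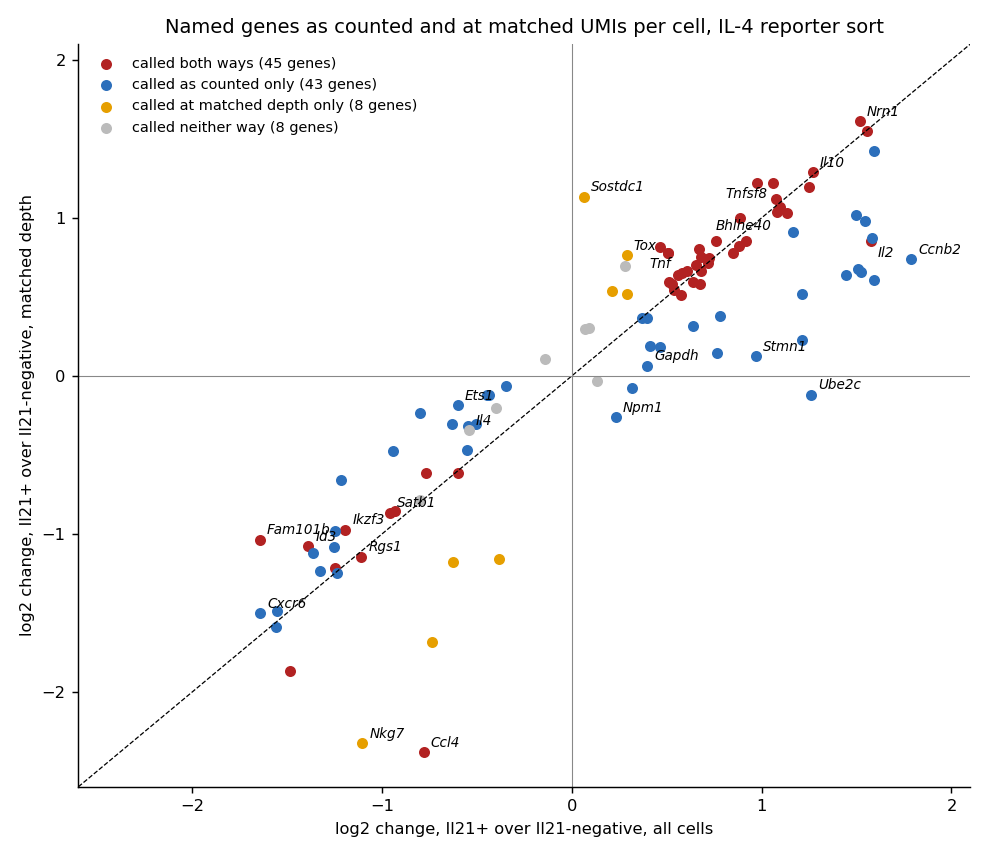
Log2 change of Il21+ over Il21-negative Tfh-marked cells for the named genes, with all cells on the x axis and with cells matched for total UMIs on the y axis. The dashed line marks equal values, and colours give which of the fits called the gene at an edgeR adjusted p under 0.05. Tnfsf8, Bhlhe40 and Satb1 lie near the line, while cell-cycle genes such as Ube2c and Stmn1 fall towards 0 at matched depth.

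Among ligands of the tumour necrosis factor family, Tnfsf8 (CD30 ligand, a costimulatory ligand of activated T cells) stood at 473, 347 and 542 CPM in Il21-negative and 1126, 839.6 and 945 CPM in Il21+ sums. Each Il21+ sum lay above every Il21-negative sum. Its log2 change was 1.10 ± 0.09 (SE, edgeR adjusted p = 7.55e-09) as counted and 1.07 ± 0.10 (edgeR adjusted p = 3.82e-08) at matched depth. The DESeq2 adjusted p was 1.64e-15. Tnfsf9 (4-1BB ligand) showed 25.2, 28 and 47.9 CPM in Il21-negative and 68.4, 100 and 83.8 CPM in Il21+ sums. The sides did not overlap, and the change was 1.25 ± 0.18 (SE, edgeR adjusted p = 3.27e-05) as counted and 1.20 ± 0.23 (edgeR adjusted p = 0.00257) at matched depth. Tnf, the founding inflammatory cytokine of the family, was at 411, 476 and 332 CPM in Il21-negative and 663, 549.9 and 586 CPM in Il21+ sums. Again the lowest Il21+ sum exceeded the highest Il21-negative sum, and Tnf rose by 0.58 ± 0.10 (SE, edgeR adjusted p = 0.000224) as counted and by 0.65 ± 0.12 (edgeR adjusted p = 0.00133) at matched depth. Cd40lg, the ligand by which helper T cells license B cells, stood at 451, 485 and 324 CPM in Il21-negative and 500, 508 and 506 CPM in Il21+ sums. It missed the threshold as counted, at 0.29 ± 0.10 (SE, edgeR adjusted p = 0.0676). At matched depth it rose by 0.51 ± 0.12 (edgeR adjusted p = 0.0168) and in each of the 3 draws. The sides of Cd40lg did not overlap.

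Il2, the T-cell growth factor gene, measured 206, 92.6 and 110 CPM in Il21-negative and 268, 383 and 556 CPM in Il21+ sums. It was higher on the Il21+ side of each mouse, by much less in mouse 1 than in mice 2 and 3, and the sides did not overlap. Its change was 1.57 ± 0.19 (SE, edgeR adjusted p = 3.45e-06) as counted and 0.86 ± 0.19 (edgeR adjusted p = 0.0164) at matched depth, where the 3 draws ranged from 0.86 to 2.04. With cycling cells left out of the matched draw it was 0.91 (edgeR adjusted p = 0.0971). The DESeq2 adjusted p was 0.159, and the top cell held 20.8% of all Il2 UMIs of the Il21-negative side and 12.7% of those of the Il21+ side. After each cell was thinned to 4000 UMIs (15 Il21+ and 85 Il21-negative cells were shallower and left out), 22.4% ± 5.04 of Il21+ and 11.6% ± 1.75 of Il21-negative cells had an Il2 UMI, against 28.4% ± 7.24 and 14.9% ± 2.44 before thinning. Of the cells with 2 or more Cd79a UMIs, 12.8% had an Il2 UMI at their median of 4967.5. The thinned share of the Il21-negative side was no higher than this unthinned share. As 37.2% of these cells had a Cd3g UMI, their share is no clean background.

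**Figure D2:**
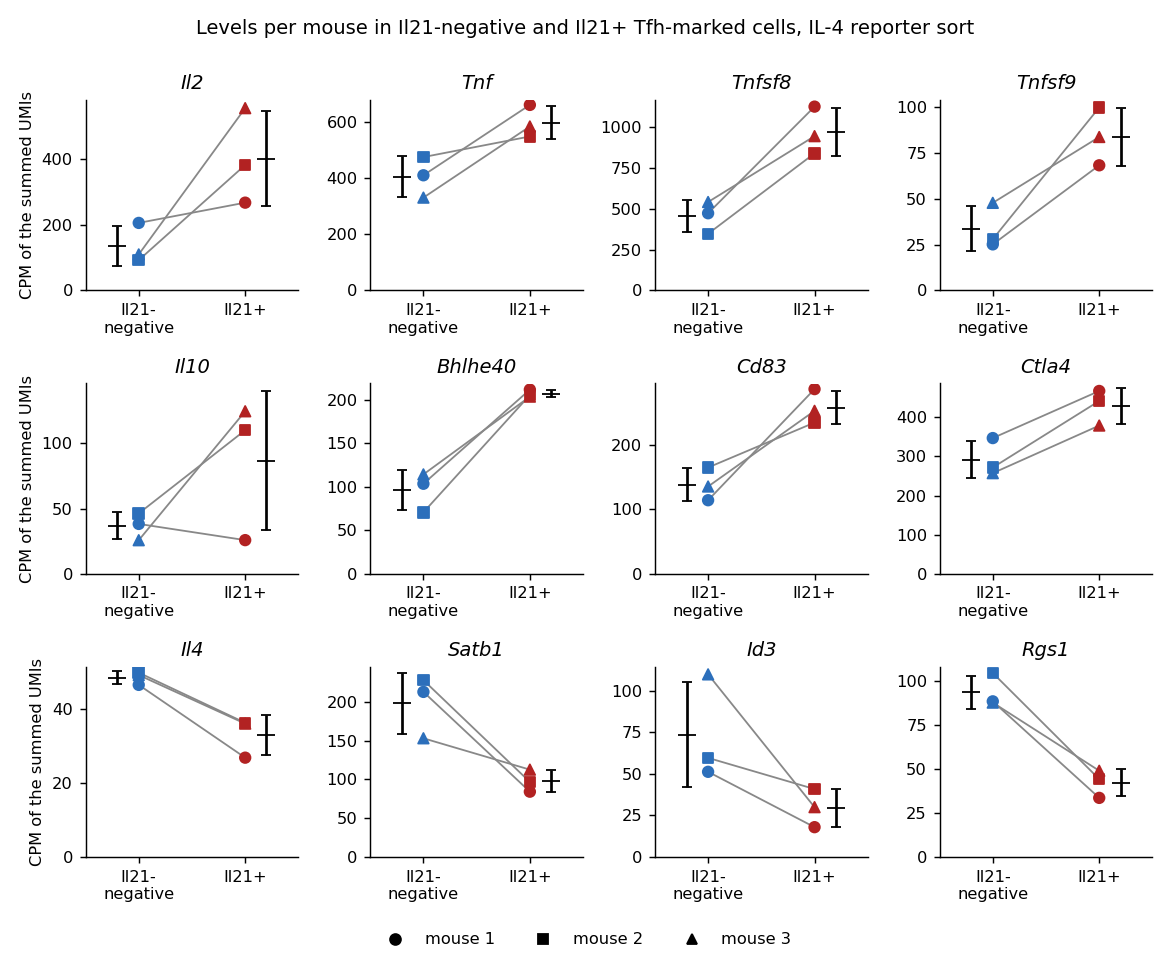
Levels of 12 genes in CPM of the summed UMIs, with 1 point per mouse and side, lines joining the sides of a mouse, and black bars giving mean ± SD over 3 mice. Tnf, Tnfsf8, Tnfsf9, Bhlhe40, Cd83 and Ctla4 were higher and Satb1, Id3 and Rgs1 lower on the Il21+ side in every mouse, Il10 was lower in mouse 1 and higher in mice 2 and 3, and Il4 was lower in each mouse without passing the test.

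Il2 and Il21 are neighbours. On GRCm38 with GENCODE M21, Il2 lies at chr3:37120523-37125959 and Il21 at chr3:37222759-37232636, both protein-coding and on the minus strand, with 96.8 kb between them. The 250 bases before the RefSeq start of both genes are shown with those of Tnfsf8 (chr4:63831308-63861347) and Tnf (chr17:35199381-35202007), ligand genes that, like Tnfsf9 and Cd40lg, were called higher at matched depth in both sorts. They are shown because the 3 genes beside Il21 were higher in Il21+ cells of both sorts under a stimulus that switches on NFAT and AP-1. The windows are RefSeq promoters on GRCm38.p6, all from the minus strand, at chr3:37232637-37232886, chr3:37125955-37126204, chr4:63861285-63861534 and chr17:35202008-35202257. They are written 5′ to 3′, and capitals mark the letters GGAAA (the core bound by NFAT) or their reverse complement.
Il21: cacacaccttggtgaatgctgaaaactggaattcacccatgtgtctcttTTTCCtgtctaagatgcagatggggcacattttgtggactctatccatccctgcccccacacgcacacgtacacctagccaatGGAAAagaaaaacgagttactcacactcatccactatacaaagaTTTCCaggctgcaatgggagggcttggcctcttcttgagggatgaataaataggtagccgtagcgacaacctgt
Il2: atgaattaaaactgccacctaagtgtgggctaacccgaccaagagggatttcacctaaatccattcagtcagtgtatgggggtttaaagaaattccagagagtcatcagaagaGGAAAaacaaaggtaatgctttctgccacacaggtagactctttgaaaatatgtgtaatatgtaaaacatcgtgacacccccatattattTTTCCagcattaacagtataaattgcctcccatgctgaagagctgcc
Tnfsf8: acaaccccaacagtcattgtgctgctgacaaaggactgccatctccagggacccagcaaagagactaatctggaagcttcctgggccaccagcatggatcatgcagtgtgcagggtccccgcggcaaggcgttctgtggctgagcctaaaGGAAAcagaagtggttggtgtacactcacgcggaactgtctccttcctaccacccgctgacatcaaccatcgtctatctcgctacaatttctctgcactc
Tnf: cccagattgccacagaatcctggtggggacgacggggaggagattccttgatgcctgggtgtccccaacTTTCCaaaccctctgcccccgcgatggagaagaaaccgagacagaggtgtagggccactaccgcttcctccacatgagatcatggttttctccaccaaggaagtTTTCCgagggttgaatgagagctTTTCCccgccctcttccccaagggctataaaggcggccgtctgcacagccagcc
The core occurred 3 times in the Il21 window, 2 times in Il2, 1 time in Tnfsf8 and 3 times in Tnf, on either strand. The same letters occur in 55.6% of 32851 RefSeq mouse promoters of this length. The AP-1 letters TGANTCA, searched on both strands and found in 6.75% of promoters, had no match in these 4 windows. A match is a string of letters only, and binding was not measured.

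The cytokine list held 34 genes, of which 21 were tested as counted. Areg, Cxcl10, Il10, Il2, Lif, Tnf and Tnfsf8 rose (7 of 21, against 4.68% of all genes), Ccl4 and Ltb fell, and the median log2 change of the list was 0.35 against -0.017 over all genes. At matched depth 7 of 19 rose and 1 fell, with a median of 0.51. Counts for this and the lists below stand beside the shares over all genes tested. These were 4.68% higher and 3.21% lower as counted, and 0.616% higher and 0.243% lower at matched depth. Lif, a cytokine of the IL-6 family, went from 65 ± 7.39 to 109 ± 21 CPM (mean ± SD, 3 mice), 0.72 ± 0.14 (SE, edgeR adjusted p = 0.000873) as counted and 0.74 ± 0.17 (edgeR adjusted p = 0.0196) at matched depth. Il10, an anti-inflammatory cytokine also made by some Tfh cells, was at 38.2, 46.3 and 25.7 CPM in Il21-negative and 25.8, 110.2 and 125 CPM in Il21+ sums. Mice 2 and 3 were higher and mouse 1 was lower on the Il21+ side, so the sides overlapped. The test of edgeR called the difference, at 1.27 ± 0.25 (SE, edgeR adjusted p = 0.00136), whereas DESeq2 gave an adjusted p of 0.923. The edgeR adjusted p was 0.124 without mouse 2 and 0.151 without mouse 3. Areg (amphiregulin, a growth factor linked to type 2 responses and repair) was likewise higher in 2 of 3 mice, with 372, 155 and 139 CPM in Il21-negative and 357, 393 and 393 CPM in Il21+ sums. Its change was 0.89 ± 0.17 (SE, edgeR adjusted p = 0.000714) by edgeR with a DESeq2 adjusted p of 0.568, and 0.174 by edgeR without mouse 2. Cxcl10, a chemokine induced by interferon, had the largest rise by the naming rule (1.94 ± 0.33 (SE, edgeR adjusted p = 0.000218)), with 60.9% of its Il21+ UMIs in 1 cell and too few counts to be tested at matched depth. Without mouse 3 its edgeR adjusted p was 0.469. Ccl4 fell by 0.78 on the log2 scale as counted and by 2.38 at matched depth (edgeR adjusted p = 0.0095 and 3.69e-06). However, 1 cell held 50% of its UMIs on the Il21+ side and 28.8% on the other, and without cycling cells the change was 0.12.

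Il4, the gene the reporter reads, did not pass. It stood at 46.6, 49.9 and 49.3 CPM in Il21-negative and 26.9, 36.4 and 36.1 CPM in Il21+ sums. Each Il21+ sum was below every Il21-negative sum, at -0.54 ± 0.19 (SE, edgeR adjusted p = 0.0722) as counted and -0.34 ± 0.23 (edgeR adjusted p = 0.833) at matched depth. With the Tfh mark raised to 2 summed UMIs of Cxcr5 and Bcl6 it fell by 0.94 on the log2 scale and passed the edgeR threshold. Limiting both sides to cells with an Il4 UMI left 3 genes called of 3528 tested. This kept only 17, 22 and 37 Il21+ and 26, 28 and 45 Il21-negative cells in mice 1, 2 and 3. Of the 434 genes called in all cells and tested there, 426 (98.2%) kept their direction. These cells are part of those in which the genes were called, so that share is no independent check. Of the 13 tested members of the type 2 list, Areg and Il10 rose and Hpgds, the prostaglandin D2 synthase of type 2 cells, fell by 1.55 (edgeR adjusted p = 0.000772). At matched depth 2 of 12 rose and 0 fell, and Hpgds was called in 1 of the 2 draws that tested it. Gata3, the master regulator of type 2 T cells, was 119 ± 30.3 CPM in Il21-negative and 120.3 ± 18 CPM in Il21+ sums (0.07 ± 0.14 (SE, edgeR adjusted p = 0.837)). Ifng, the type 1 cytokine, was 54.1, 54.8 and 60.7 CPM in Il21-negative and 3.36, 42 and 50.4 CPM in Il21+ sums. It was lower in each mouse, most so in mouse 1, and did not pass as counted (-0.80 ± 0.27 (SE, edgeR adjusted p = 0.0653)) or in any draw at matched depth. It was called lower with nearest-depth cells (-1.13, edgeR adjusted p = 0.00519) and without mouse 3 (-1.34, edgeR adjusted p = 0.000136), and its change was 1.16 without cells holding other types' UMIs (edgeR adjusted p = 0.225). The top cell held 24.5% of its UMIs on the Il21-negative and 26.3% on the Il21+ side. Il6 was at most 1.12 CPM in any sum and was not tested.

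Several transcription factor genes rose, among them Bhlhe40, Zfp703, Egr4, Fosl2 and Batf. Bhlhe40, a repressor that supports cytokine production by activated T cells, was at 104, 70.7 and 114 CPM in Il21-negative and 212, 206 and 204 CPM in Il21+ sums. The 3 Il21+ sums lay within a narrow band, all above the highest Il21-negative sum. It changed by 1.08 ± 0.13 (SE, edgeR adjusted p = 1.38e-06) as counted and 1.04 ± 0.15 (edgeR adjusted p = 0.000151) at matched depth, and DESeq2 gave an adjusted p of 0.000107. Zfp703, a zinc-finger repressor, went from 64.8 ± 6.21 to 141 ± 22 CPM, 1.14 ± 0.13 (SE, edgeR adjusted p = 1.37e-06) as counted and 1.03 ± 0.16 (edgeR adjusted p = 0.000266) at matched depth. Egr4 (an immediate-early factor) went from 198 ± 53.3 to 298 ± 45.4 CPM and Fosl2 (an AP-1 subunit) from 87.3 ± 8.17 to 139 ± 14 CPM. Their matched-depth changes were 0.66 ± 0.13 (edgeR adjusted p = 0.00271) and 0.80 ± 0.16 (edgeR adjusted p = 0.00408). Batf, the AP-1 family factor needed for Tfh differentiation and Il21 expression, rose by 0.51 ± 0.12 (SE, edgeR adjusted p = 0.00533) as counted and 0.59 ± 0.15 (edgeR adjusted p = 0.0456) at matched depth, where 2 of 3 draws called it. With cycling cells left out Batf was not called, at 0.31 (edgeR adjusted p = 0.344), nor at matched depth without them, at 0.19 (edgeR adjusted p = 0.767). Its DESeq2 adjusted p was 0.267. Of the 26 tested regulators known to induce Il21, 2 rose (Batf and Fosl2) and 2 fell (Ets1 and Ikzf3), with a median of -0.10. Over all genes 4.68% were higher and 3.21% lower. The inducers Maf and Irf4 did not pass as counted or in the first matched draw, and 1 of 3 draws called Maf. As counted Maf was at 389.8 ± 72.8 CPM in Il21-negative and 418 ± 26.1 CPM in Il21+ sums, and Irf4 at 113 ± 33.8 CPM in Il21-negative and 119 ± 9.32 CPM in Il21+ sums.

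The list of genes known to respond quickly to T-cell stimulation had 42 tested members as counted, of which 10 rose and 2 fell, at a median of 0.13. At matched depth 4 rose (Bhlhe40, Cd83, Fosl2, Spry1) and 1 fell (Ier3) of 41, at a median of 0.15. When cells with an Mki67 or Top2a UMI were left out of both sides, 165 of 5706 genes passed (2.89% called), 115 higher (2.02%) and 50 lower (0.876%). In these non-cycling cells 19 of 39 members of the list rose, among them Egr1, Egr2, Fos, Junb, Nr4a1, Nr4a2 and Nr4a3, with 1 lower (Klf2) and a median of 0.36. Of 19 tested cytokines and ligands, 11 rose in them at a median of 0.73, with Ccl1, Csf1, Fasl and Tnfsf11 called in addition to genes named above. The depth gap remained in this subset, with medians of 7362 to 7703 UMIs in Il21+ and 5229 to 6089 UMIs in Il21-negative cells. Drawn at matched depth from non-cycling cells, 12 of 39 quick-response genes rose and 0 fell, against 60 higher and 50 lower of 4794 genes tested. Of 25 tested TCR signalling genes, 2 rose and 4 fell as counted, against 4.68% and 3.21% of all genes, at a median of -0.033. At matched depth 0 passed by edgeR in the first draw, at a median of 0.088, and Zap70 (a kinase of the receptor) was called in 1 of 3 draws. Zap70 also rose at matched depth without cycling cells (0.57, edgeR adjusted p = 0.0239).

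**Figure D3:**
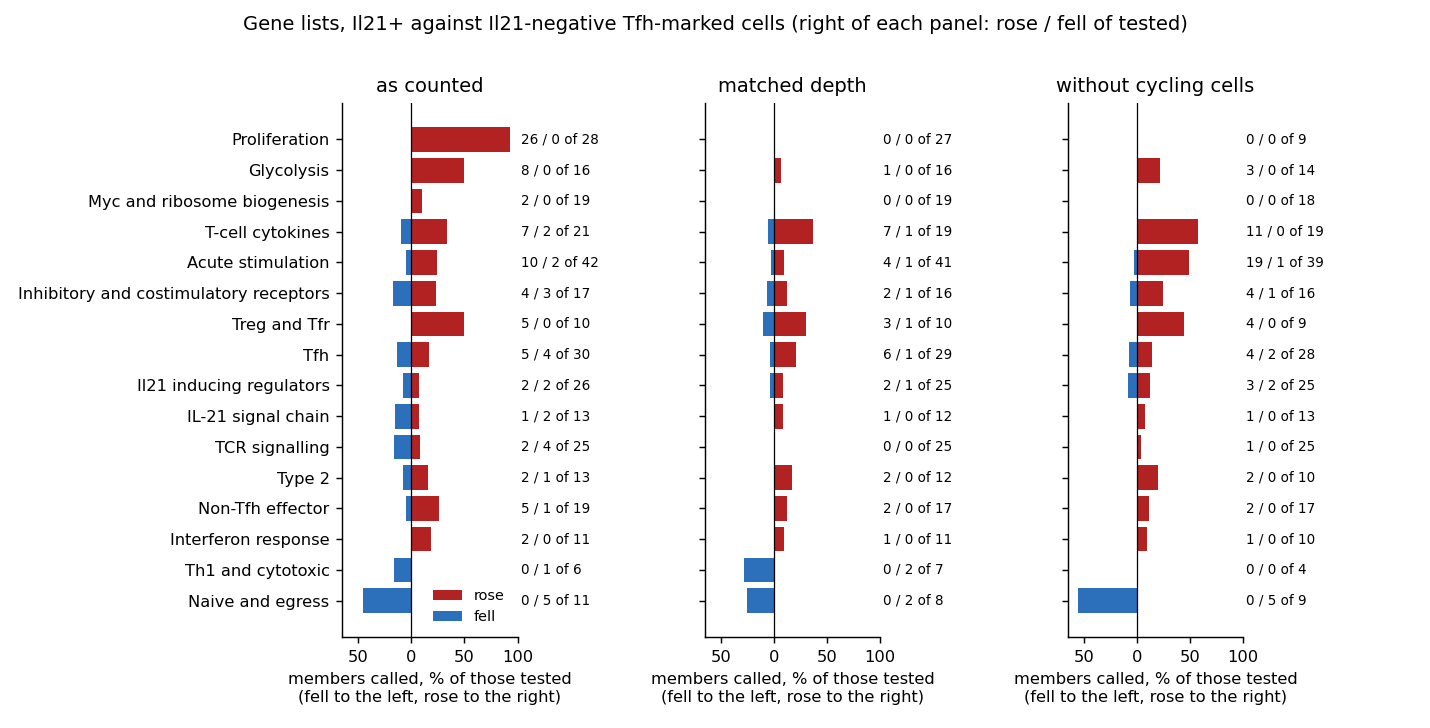
Share of the tested members of each gene list that rose (right, red) or fell (left, blue) in Il21+ cells at an edgeR adjusted p under 0.05, as counted, at matched depth and without cycling cells, with the numbers beside the bars. Proliferation genes went from 26 of 28 called as counted to 0 of 27 in the bin-matched cells, while the cytokine list had 7 called higher in both.

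Among surface receptors, Cd83, Ctla4, Lag3, Ly6a and Ptger4 rose, while the receptor list as a whole was mixed. Cd83, an activation marker that stabilises surface MHC class II and CD86 on antigen-presenting cells, was at 114, 164 and 135 CPM in Il21-negative and 286, 234 and 252 CPM in Il21+ sums. No Il21-negative sum reached the lowest Il21+ sum, and the change was 0.92 ± 0.12 (SE, edgeR adjusted p = 1.2e-05) as counted and 0.85 ± 0.16 (edgeR adjusted p = 0.00161) at matched depth. Ctla4, the inhibitory receptor for CD80 and CD86, showed 347, 272 and 257 CPM in Il21-negative and 467, 442 and 379 CPM in Il21+ sums. The sides did not overlap, and it rose by 0.56 ± 0.09 (SE, edgeR adjusted p = 0.000203) and, at matched depth, by 0.64 ± 0.12 (edgeR adjusted p = 0.00161). Lag3, another inhibitory receptor, went from 120.2 ± 29.4 to 198 ± 35.4 CPM, at 0.68 ± 0.14 (SE, edgeR adjusted p = 0.00136) as counted and 0.75 ± 0.14 (edgeR adjusted p = 0.00245) at matched depth. Its DESeq2 adjusted p was 0.0724, and with at most 5% mitochondrial UMIs, which left 110 Il21-negative and 90 Il21+ cells, its change was -0.21. At that limit median depth was 8331 to 13230 UMIs in Il21+ and 4543 to 7209 UMIs in Il21-negative cells. Tnfrsf4 (OX40) rose as counted, 0.64 ± 0.11 (SE, edgeR adjusted p = 0.000303), and came to 0.31 ± 0.13 (edgeR adjusted p = 0.461) in the first draw at matched depth, while the other draws called it (0.60 and 0.56). Of 17 tested inhibitory and costimulatory receptors, 4 rose and 3 fell (Cd27, Cd28, Cd84) as counted, with a median of -0.09, and 2 rose and 1 fell (Tnfrsf9, 4-1BB) of 16 at matched depth, with a median of 0.18. Ly6a (Sca-1) was at 105, 128 and 147 CPM in Il21-negative and 192, 347 and 282 CPM in Il21+ sums. It did not overlap between sides and rose by 1.07 ± 0.12 (SE, edgeR adjusted p = 5.47e-07) as counted and 1.12 ± 0.14 (edgeR adjusted p = 7.71e-06) at matched depth. Ptger4, the prostaglandin E2 receptor EP4, rose by 0.88 ± 0.15 (SE, edgeR adjusted p = 0.000166) and 0.82 ± 0.18 (edgeR adjusted p = 0.0123) in the same fits.

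Genes shared with regulatory T cells and follicular regulatory T cells were also called higher in part, without Foxp3. Of 10 tested members, 5 rose as counted (Capg, Ctla4, Ikzf2, Il10, Tnfrsf4) and 0 fell, at a median of 0.37, against 4.68% of all genes higher. At matched depth 3 rose and 1 fell, against 0.616% and 0.243% of all genes. The summed level of the 14 listed genes was 955 to 1389.8 CPM in the Il21-negative and 1536 to 1689 CPM in the Il21+ sums. Foxp3 itself, the regulator that defines regulatory T cells, was at 0 in 5 of 6 sums and at 1.87 CPM in the Il21-negative sum of mouse 1, from 1 cell. Ikzf2 (Helios), a zinc-finger factor of regulatory and activated T cells, stood at 126, 96.2 and 171 CPM in Il21-negative and 138, 186 and 225 CPM in Il21+ sums. It was higher in each mouse while the sides overlapped, at 0.47 ± 0.13 (SE, edgeR adjusted p = 0.0196) as counted and 0.82 ± 0.15 (edgeR adjusted p = 0.00126) at matched depth.

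Tfh genes that the selection did not use were split. Of 30 tested list members, 5 rose (Angptl2, Batf, Cd200, Cebpa, Tnfsf8) and 4 fell (Gpr183, Id3, Sh2d1a, Tcf7) as counted, at a median of 0.055. There were 6 that rose (Angptl2, Batf, Cd40lg, Sostdc1, Tnfsf8, Tox) and 1 fell (Id3) of 29 at matched depth, at a median of 0.29. Angptl2, a secreted angiopoietin-like protein, was at 64.4, 45.1 and 48.6 CPM in Il21-negative and 126, 92 and 109 CPM in Il21+ sums. The sums of the sides did not overlap, and it rose by 1.06 ± 0.14 (SE, edgeR adjusted p = 1.2e-05) as counted and 1.22 ± 0.19 (edgeR adjusted p = 0.000151) at matched depth. Tox, an HMG-box factor that promotes Tfh fate, was 152 ± 5.67 CPM in Il21-negative and 186 ± 6.96 CPM in Il21+ sums. It changed by 0.29 ± 0.11 (SE, edgeR adjusted p = 0.114) as counted and rose at matched depth by 0.76 ± 0.14 (edgeR adjusted p = 0.00184) and in each draw. Sostdc1, which encodes a secreted inhibitor of BMP and WNT signals, differed mainly between mice, with 91.4, 99.9 and 255 CPM in Il21-negative and 188, 63.6 and 212 CPM in Il21+ sums. It changed by 0.06 ± 0.17 (SE, edgeR adjusted p = 0.884) as counted and 1.13 ± 0.17 (edgeR adjusted p = 0.000151) at matched depth, and 2 of 3 draws, which ranged from 0.56 to 1.13, called it. Sh2d1a (SAP, the adaptor of SLAM receptors) fell by 0.35 ± 0.09 as counted (edgeR adjusted p = 0.0162) and was -0.06 at matched depth (edgeR adjusted p = 0.963). Pdcd1 (PD-1) and Icos, both surface markers of Tfh cells, stood without a call at 0.28 ± 0.15 (SE, edgeR adjusted p = 0.303) and -0.14 ± 0.11 (SE, edgeR adjusted p = 0.466) as counted. At matched depth Pdcd1 came to 0.69 ± 0.18 (edgeR adjusted p = 0.055) in the first draw and was called higher in the other draws, 2 of 3 in all (0.70 and 0.73).

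Some genes of less differentiated T cells fell, and most members of their list were not called. Of 11 tested members of the naive and egress list, 5 fell (Bach2, Foxp1, Lef1, Satb1, Tcf7) and 0 rose as counted, against 3.21% of all genes falling, at a median of -0.45. At matched depth 2 of 8 fell (Foxp1, Satb1), at a median of -0.36. Satb1, a chromatin organiser of resting T cells, was at 213, 228 and 153 CPM in Il21-negative and 84.1, 96.6 and 112 CPM in Il21+ sums. Every Il21+ sum lay below every Il21-negative sum, with a change of -0.96 ± 0.14 (SE, edgeR adjusted p = 3.11e-05) as counted, -0.87 ± 0.16 (edgeR adjusted p = 0.00192) at matched depth and a DESeq2 adjusted p of 0.00414. Foxp1, a factor that maintains T-cell quiescence and restrains Tfh formation, went from 226 ± 7.04 to 132 ± 25.5 CPM. Its change was -0.77 ± 0.12 (SE, edgeR adjusted p = 7.22e-05) as counted and -0.62 ± 0.16 (edgeR adjusted p = 0.0438) at matched depth, where 2 of 3 draws called it. Lef1 and Tcf7, the HMG-box pair that opens the Tfh programme, fell as counted (-0.94 ± 0.14 (SE, edgeR adjusted p = 3.27e-05) and -0.45 ± 0.09 (SE, edgeR adjusted p = 0.000978)). At matched depth neither passed, at -0.48 and -0.12 (edgeR adjusted p = 0.338 and 0.913), although 2 of the 3 draws called Lef1. Id3, an inhibitor of E proteins that restrains Tfh differentiation, was at 51.3, 59.7 and 110 CPM in Il21-negative and 17.9, 40.9 and 30 CPM in Il21+ sums. The sides did not overlap, and it fell by 1.39 ± 0.21 as counted and 1.08 ± 0.27 at matched depth (edgeR adjusted p = 3.39e-05 and 0.0362).

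Ikzf3, Rgs1 and Fam101b also fell. Ikzf3 (Aiolos), an Ikaros family factor, went from 72.1 ± 14.9 to 31.3 ± 8.82 CPM, -1.19 ± 0.17 (SE, edgeR adjusted p = 3.27e-05) as counted and -0.97 ± 0.23 (edgeR adjusted p = 0.028) at matched depth, where 2 of 3 draws called it. Without cycling cells Ikzf3 was called lower (-0.98, edgeR adjusted p = 0.00627), and at matched depth without them it was not (-0.49, edgeR adjusted p = 0.451). Ets1, a factor of T-cell quiescence and differentiation, fell as counted (-0.60 ± 0.08 (SE, edgeR adjusted p = 1.97e-05)) and not at matched depth (-0.18 ± 0.11 (edgeR adjusted p = 0.772)). Rgs1, a regulator of G-protein signalling that blunts chemokine responses, was at 88.6, 105 and 87.9 CPM in Il21-negative and 33.6, 44.3 and 49.1 CPM in Il21+ sums. Each Il21+ value was below each Il21-negative value, at -1.11 ± 0.16 (SE, edgeR adjusted p = 2.97e-05) as counted and -1.14 ± 0.21 (edgeR adjusted p = 0.00184) at matched depth. Fam101b (refilin B, which binds filamin) was at 117, 138 and 135 CPM in Il21-negative and 46, 50 and 32.7 CPM in Il21+ sums. The sides were far apart, at -1.65 ± 0.16 (SE, edgeR adjusted p = 4.63e-08) as counted and -1.04 ± 0.19 (edgeR adjusted p = 0.00174) at matched depth, with a DESeq2 adjusted p of 8.04e-06. Acp5, the tartrate-resistant acid phosphatase, and Prdx6, a peroxiredoxin, fell at matched depth by 0.86 and 0.62 (edgeR adjusted p = 0.0196 and 0.0251). The other largest falls by the naming rule came from low counts, led by Zfp652 (21.3 ± 4.73 CPM in Il21-negative and 3.1 ± 1.45 CPM in Il21+ sums, -2.59 ± 0.41 (SE, edgeR adjusted p = 9.24e-05)) and Pde2a (22.1 ± 6.41 CPM in Il21-negative and 5.82 ± 3.28 CPM in Il21+ sums, -1.83 ± 0.35 (SE, edgeR adjusted p = 0.000741)). Neither had enough counts to be tested at matched depth. In the signal chain of IL-21, the feedback inhibitors Socs1 and Socs3 fell as counted (-0.55 ± 0.14 (SE, edgeR adjusted p = 0.0122) and -0.63 ± 0.16 (SE, edgeR adjusted p = 0.0109)) and did not pass in the first draw at matched depth (-0.47 and -0.30), while 1 of 3 draws called Socs1. The receptor gene Il21r was 62.9 ± 7.87 CPM in Il21-negative and 46.5 ± 3.49 CPM in Il21+ sums (-0.40 ± 0.17 (SE, edgeR adjusted p = 0.157)).

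Cell-cycle genes gave many of the largest rises as counted, and most of these were not called in bin-matched cells. Of 28 listed proliferation genes, 26 rose and 0 fell, at a median of 1.09, and their summed level was 2369 to 2851 CPM in Il21-negative and 4027 to 5213 CPM in Il21+ sums. In the bin-matched cells 0 of 27 passed by edgeR, at a median of 0.092. When each Il21+ cell was instead paired with the Il21-negative cell nearest in total UMIs, 21 of 28 rose at a median of 0.87, but that pairing left a gap, with medians of 8179 to 8417 UMIs in Il21+ and 6831 to 7915 UMIs in Il21-negative cells. Mki67, the proliferation marker, was at 22.4, 71.9 and 134 CPM in Il21-negative and 199.6, 239.7 and 237 CPM in Il21+ sums. It rose by 1.58 ± 0.20 (SE, edgeR adjusted p = 4.6e-06) as counted. Its change was 0.87 ± 0.28 (edgeR adjusted p = 0.194) in the bin-matched cells, where 1 of 3 draws called it, and 1.38 with nearest cells (edgeR adjusted p = 2.71e-06). Birc5 (survivin, which acts in chromosome segregation) and Ube2c (an E2 enzyme of the anaphase-promoting complex) changed by 1.21 and 1.26 as counted (edgeR adjusted p = 5.47e-07 and 5.47e-07) and by 0.23 and -0.12 at matched depth (edgeR adjusted p = 0.859 and 0.955). The share of cells with an Mki67 or Top2a UMI was 39.4% ± 3.72 in Il21+ and 27.5% ± 2.72 in Il21-negative cells of 3 mice, and 35.0% ± 0.136 and 30.8% ± 5.86 at matched depth. Of the 335 genes called higher as counted, 77 could not be tested once such cells were left out. Glycolysis genes behaved alike, with 8 of 16 rising as counted (Aldoa, Gapdh and Pkm among them, median 0.41) and 1 of 16 at matched depth, Hif1a (the hypoxia factor that drives them), at 0.58 ± 0.12 (edgeR adjusted p = 0.00384). Of 19 tested Myc and ribosome biogenesis genes, 2 rose as counted (Eif5a, Npm1) and 0 at matched depth, where Npm1 was -0.26 and Eif5a -0.08 (edgeR adjusted p = 0.331 and 0.957). How far the cycle itself, rather than depth, moves with Il21 was not tested.

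Of 19 tested genes of effector T cells other than Tfh, 5 rose as counted (Anxa2, Crip1, Itgb1, Lgals1, S100a6) and Cxcr6 fell. At matched depth 2 rose, Itgb1 (integrin beta-1, 0.51 ± 0.13 (edgeR adjusted p = 0.0456)) and S100a6 (a calcium-binding protein, 0.60 ± 0.14 (edgeR adjusted p = 0.0189)), which was higher in 2 of 3 mice. Itgb1 was called in 2 of 3 draws, and so was Lgals1 (galectin-1), which missed the threshold in the first (0.38 ± 0.11 (edgeR adjusted p = 0.152)). At the 5% mitochondrial limit the change of Itgb1 was -0.06. In the interferon list 2 of 11 rose as counted, and Ifi27l2a, an interferon-inducible gene on chromosome 12, was at 2061, 1442 and 1366 CPM in Il21-negative and 2825, 2419 and 1832 CPM in Il21+ sums. The sides overlapped across mice while each mouse was higher on its Il21+ side, at 0.54 ± 0.07 (SE, edgeR adjusted p = 1.2e-05) as counted, 0.54 ± 0.09 (edgeR adjusted p = 0.000278) at matched depth and -0.18 at the 5% mitochondrial limit. Of 6 tested type 1 and cytotoxic genes, 1 fell as counted (Cxcr6, -1.64 ± 0.33 (SE, edgeR adjusted p = 0.00136)). At matched depth 2 of 7 fell (Cd8b1 and Nkg7), both with means at or below 21.9 CPM on either side and 44.2% and 61.3% of their Il21+ UMIs in 1 cell. Cxcr6 was called lower in 2 of 3 draws (-1.50, -1.49 and -1.57), though not in the first. Of 2 tested type 17 genes, 0 passed by edgeR. B-cell markers summed to 319 to 767 CPM in Il21-negative and 252 to 376 CPM in Il21+ sums. Among them 1 of 3 tested members was called as counted (Igkc, lower, -0.80 ± 0.18 (SE, edgeR adjusted p = 0.00439)) and 1 at matched depth (Cd74, lower, -1.16 ± 0.29 (edgeR adjusted p = 0.0395)). The other draws gave Cd74 -0.34 and -0.42 without a call, and 1 cell held 45.0% of its Il21-negative UMIs. With the Tfh mark at 2 UMIs Cd74 was called higher instead (1.11, edgeR adjusted p = 0.00985). Macrophage and dendritic-cell markers summed to 96.1 to 197 and 99.98 to 216 CPM with C1qc, Csf1r, Cd14 and Siglech at 0. CD8 and NK markers summed to 41.4 to 55.0 and 11.4 to 66.1 CPM with Ncr1 at 0. ILC2, mast-cell and basophil markers summed to 11.4 to 17.1 and 2.27 to 10.2 CPM with 8 of 13 at 0 on both sides. Without the cells that held UMIs of other cell types, 190 genes were called.

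Levels were also read by the number of Il21 UMIs per cell, as a description. Depth rises along these classes (medians of 6036.5, 6844, 7703, 8083 and 9166.5 UMIs for 0, 1, 2, 3 to 5 and 6 or more Il21 UMIs, in 496, 144, 71, 134 and 102 cells). Tnf was at 397 ± 64.3, 369 ± 23.9, 488 ± 134, 585 ± 44.2 and 668 ± 34.9 CPM (mean ± SD, 3 mice) in these classes. Bhlhe40 went 94.3 ± 23.8, 144 ± 23.3, 134 ± 15.3, 181 ± 30.6 and 274 ± 54.8 CPM. Tnf was no higher with 1 Il21 UMI than with 0, while Bhlhe40 was already higher there. Ikzf3 was at 70.9 ± 17.2 and 66 ± 26.2 CPM with 0 and 1 UMI and at 21.6 ± 5.55 CPM with 6 or more. Mki67 had another shape, with 75.9 ± 57.8 CPM at 0 and 308 ± 74.5 CPM at 1 Il21 UMI, and 153 ± 69.2 CPM at 3 to 5. Its mean was highest at 1 Il21 UMI, with 272 ± 85.7 CPM at 2 and 263 ± 98.5 CPM at 6 or more, and the mice of these classes overlapped. Il4 showed no steady order, from 47.6 ± 3.09 CPM at 0 to 27.3 ± 5.87 CPM at 6 or more with 44.8 ± 20.9 CPM at 3 to 5.

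**Figure D4:**
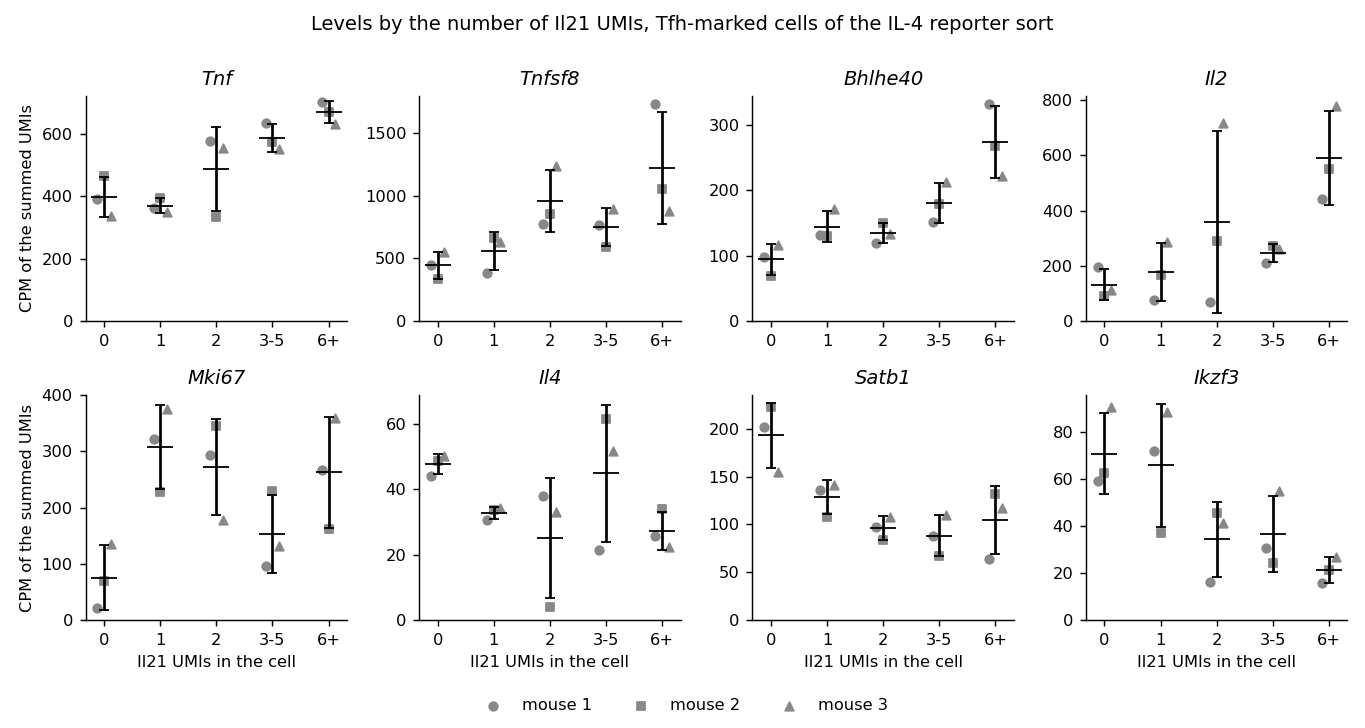
Levels in CPM of 8 genes in Tfh-marked cells grouped by their Il21 UMIs, with 1 grey point per mouse and black bars for mean ± SD over 3 mice. Tnf, Bhlhe40 and Il2 are highest with 6 or more Il21 UMIs, Satb1 and Ikzf3 are highest with 0, and Mki67 is lowest with 0.

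The same selection in the Tfh sort, whose mice, strain, sort gate, 10x chemistry and sequencer all differ from those of the reporter sort, gave 315 Il21+ and 392 Il21-negative cells. There 37 of 5215 genes passed as counted (0.709% called), 18 higher (0.345%) and 19 lower (0.364%), and 121 of 4469 at matched depth (2.71% called), 61 higher (1.36%) and 60 lower (1.34%). The tables were fitted separately and levels are not compared between sorts. At matched depth 18 genes were called in the same direction in both sorts, which is 34% of the 53 of the reporter sort and 14.9% of the 121 of the Tfh sort. They were Areg, Bhlhe40, Cd40lg, Ctsl, Egr4, Fosl2, Furin, Hif1a, Il2, Slc41a1, Tgif1, Tnf, Tnfsf8, Tnfsf9 and Zfp703, all higher in Il21+ cells, and Ccl4, Cd74 and Tnfrsf9, all lower. Of these, Cd74 and Tnfrsf9 were called in 1 of 3 draws in the reporter sort. In the Tfh sort Il2 was at 569, 652 and 769.7 CPM in the Il21-negative sums of its mice 1, 2 and 3 and 1732, 1459 and 1826 CPM in the Il21+ sums. Every Il21+ sum lay above every Il21-negative sum, at 1.34 ± 0.09 (SE, edgeR adjusted p = 3.53e-11) as counted and 1.42 ± 0.10 at matched depth (edgeR adjusted p = 9.78e-38). The matched cells of the Tfh sort were drawn 1 time only. With 3 mice, adjusted p values this small rest on dispersion shared over genes. They do not measure the spread of a single gene between mice. Tnfsf8 there was at 1829.8, 2118 and 2012 CPM and 3347, 3420.0 and 4133 CPM, with a matched-depth change of 0.97 ± 0.08 (edgeR adjusted p = 3.91e-27) beside 1.07 ± 0.10 in the reporter sort. Tnf changed by 0.69 ± 0.12 (edgeR adjusted p = 3.32e-06) and Cd40lg by 0.74 ± 0.11 (edgeR adjusted p = 1.75e-09) in the Tfh sort.

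Other genes of the reporter sort had no counterpart call. At matched depth Satb1 was 0.02 ± 0.24 in the Tfh sort (edgeR adjusted p = 0.992), Ctla4 0.08 ± 0.14 (0.921 by edgeR), Cd83 0.03 ± 0.12 (0.979 by edgeR), and Ly6a -0.13 ± 0.15 (0.857 by edgeR). Il10 was 0.03 ± 0.22 (0.987 by edgeR) and Rgs1 0.19 ± 0.24 (0.877 by edgeR). No difference between sorts was tested. The proliferation list went the other way in the Tfh sort, with 2 of 28 falling as counted (Cdc20 and Ube2c) and 17 of 28 at matched depth, at a median of -0.90. Ube2c there was at 237, 312 and 340.2 CPM in Il21-negative and 156, 151 and 169 CPM in Il21+ sums. Il4 did not pass in the Tfh sort either, at 0.22 ± 0.12 at matched depth (edgeR adjusted p = 0.504), with 555, 879 and 582 CPM in Il21-negative and 676, 828 and 1092 CPM in Il21+ sums. All 6 tested B-cell markers were lower in Il21+ cells of the Tfh sort as counted and 5 of 6 at matched depth, while 1 of 3 was in the reporter sort.

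**Figure D5:**
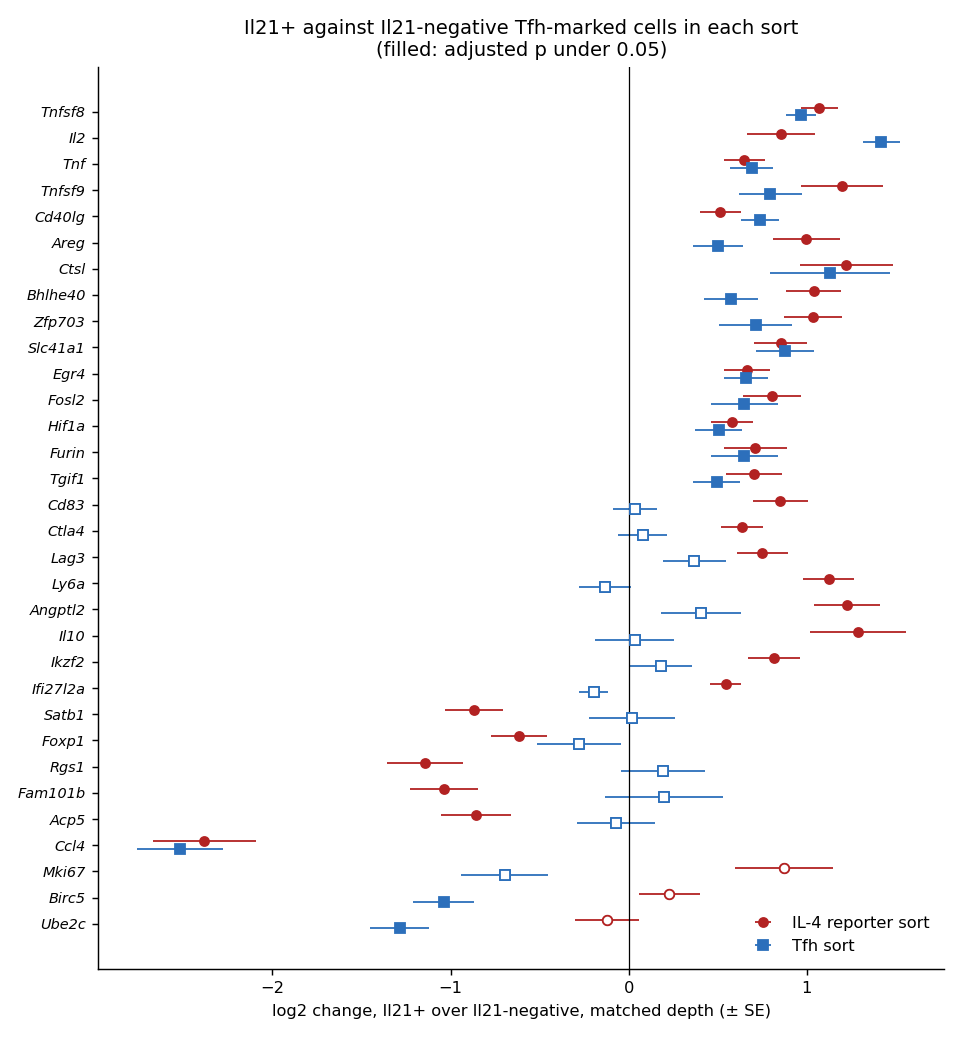
Log2 change of Il21+ over Il21-negative Tfh-marked cells at matched depth in the IL-4 reporter sort (red circles) and the Tfh sort (blue squares), with bars for ± SE and filled symbols for an edgeR adjusted p under 0.05. Tnfsf8, Il2, Tnf and 12 more genes were called higher in both sorts, Satb1, Rgs1 and Ly6a were called in the reporter sort, and Birc5 and Ube2c fell in the Tfh sort.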

How the data were processed

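Transcripts were measured with 10x Genomics droplets in 1 library per sort, with a hashtag library naming the mouse of each cell. The authors deposited raw UMI counts per gene and cell, and raw hashtag counts. Per the submitters' processing notes the tools were bcl2fastq (2.18.0.12, 2.20.0.422) and Cell Ranger 2.2.0, with mm10 (GRCm38). The reporter matrix, per the file headers, names software version 3.0.2. The annotation release is not given in the sources used here.

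A cell belonged to a mouse when its top hashtag had at least 10 counts and 3 times the next, which also left out doublets of different mice. No doublet caller was run. UMIs were summed per mouse and side (6 sums per sort, 841768 to 1467228 UMIs in the reporter sort and 352859 to 624451 in the Tfh sort), the 5 genes that chose the cells were removed, and genes passing filterByExpr (minimum count 10) were fitted with edgeR 4.0.16 (TMM, quasi-likelihood test, the mouse as a block) in R 4.3.3, with Benjamini-Hochberg adjustment over all genes tested. Both sides of a mouse come from the same animal, so the block is a true pairing. CPM use the TMM factors, except in the marker check and the Il21 classes, and an SE is the log2 change over the root of its F value. DESeq2 1.42.0 was an alternative. In simulated data for the reporter comparison (6985 genes) 91% of 2-fold and 99% of 4-fold changes were recovered. Intervals cover counting error only.

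Named genes were a fixed set, the 15 largest rises and falls at 20 CPM or more with 1 direction in 3 of 3 mice, and up to 4 called members per list. Genes called only at matched depth, and single genes given for their other readouts, were named after their values were seen. The cells and the 21 gene lists were chosen with earlier results of these data known. Coordinates are GENCODE M21 on GRCm38. A few list members and 1 setting's details are not reported here.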

Additional observations from a re-analysis of the deposited data

Results flagged for a closer look

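Among the named genes, 7 had every mouse of the IL-4 reporter sort moving one way and every mouse of the Tfh sort the other, as counted. The difference between the sorts was not tested. Of the 565 genes called as counted in the reporter sort, 494 were tested in the Tfh sort as counted, and 328 of these (66.4%) kept direction there. In the matched cells of the Tfh sort 457 of the 565 were tested, and 199 of these (43.5%) kept direction. The log2 changes of Il21+ over Il21-negative cells were 1.79 and -0.73 for Ccnb2 in the reporter and the Tfh sort, 1.51 and -0.77 for Kif11, 1.5 and -0.13 for Diaph3, 1.47 and -0.61 for Cdkn3, 1.21 and -0.56 for Birc5, and 1.26 and -0.89 for Ube2c. These 6 genes act in the cell cycle or cytokinesis. Socs3, a feedback inhibitor of cytokine signalling, went the opposite way, with -0.63 and 0.18. Among the 7, Ube2c was called in the Tfh sort as counted (edgeR adjusted p = 0.00038). In the matched cells of the Tfh sort Ccnb2 (-1.21), Kif11 (-1.34), Birc5 (-1.04) and Ube2c (-1.29) were called lower. Their edgeR adjusted p values were 3.1e-06, 0.0246, 5.26e-07 and 1.52e-11. Diaph3 (-0.35), Cdkn3 (-1.06) and Socs3 (0.65) were not called in those cells. In the first matched draw of the reporter sort Ccnb2 was 0.74, Kif11 0.67, Diaph3 1.02, Birc5 0.23, Ube2c -0.12 and Socs3 -0.30. Cdkn3 had too few counts to be tested in it. No matched draw of the reporter sort called any of the 7. The sorts differ in strain, gate, chemistry and sequencer, which cannot be told apart here.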

How the results depend on the processing

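The count of 565 genes became 82 with DESeq2, 352 with no replicate block, 53 with depth bins (91 and 95 in further draws), 241 with nearest-depth cells, 334 with the Tfh mark at 2 UMIs, 71 at 5% mitochondrial UMIs, 190 without cells holding other types' UMIs, 165 without cycling cells, 234 without high-UMI cells, 110 with depth bins and no cycling cells, and 3 in cells with an Il4 UMI. It ranged from 161 (without mouse 2) to 506 over left-out mice, and from 539 to 630 under RLE factors, no filter, Il21 at 1 or 3 UMIs, 1000 genes, HTODemux singlets and no Foxp3 cells. The 96 called list members became 31 with DESeq2, 32, 41 and 45 in the bin draws, 17 at 5% mitochondrial UMIs, 44 without other types' UMIs, 53 without cycling cells, 32 with bins and no cycling cells, and 3 with an Il4 UMI, and 42 to 99 over left-out mice. In the Tfh sort 37 became 7 with DESeq2, 80 with no filter and 121 with depth bins, and 17 to 67 over left-out mice. Il4 fell by 0.94 with the Tfh mark at 2 UMIs and passed the edgeR threshold. Of 2348 alternatives for 108 single genes, 1785 kept direction and side of the threshold, 473 lost the call, 42 gained it and 20 changed the sign of a called value. In 28 more, from 9 genes (Irf4, Icos, Gata3 and Maf among them), the sign changed with no call either way. The limit of 5% mitochondrial UMIs left 19 to 52 cells a sum and a wide depth gap. Medians in mice 1, 2 and 3 were 8331, 11584 and 13230 UMIs in Il21+ and 7209, 6788 and 4543 UMIs in Il21-negative cells. The sign of a called value changed at this limit for Lag3 (-0.21), Itgb1 (-0.060), Ifi27l2a (-0.18) and Lbh (-0.023). It changed in the bin draws for Birc5 (-0.022, draw 2), Ube2c (-0.12, -0.14 and -0.026), Eif5a (-0.076, draw 1), Npm1 (-0.26, -0.19 and -0.064) and Igkc (0.020, draw 3). It changed without cycling cells for Stmn1 (-0.36), Npm1 (-0.043) and Ccl4 (0.12), with bins as well for Stmn1 (-0.73), Eif5a (-0.23) and Npm1 (-0.37), and with the Tfh mark at 2 UMIs for Cd74 (1.11, called). The cause was not tested. The limit of 1 Il4 UMI left 17 to 37 Il21+ and 26 to 45 Il21-negative cells a mouse. Cells with 2 or more Il4 UMIs were too few to be fitted. The further draws, the joint removal of depth and cycling cells and the limit of 1 Il4 UMI were chosen after seeing the data.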
